A study of Mus musculus with 4 samples.

Results

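The 33 genes described here encode the chaperones and folding enzymes of the endoplasmic reticulum (ER), the machinery that removes misfolded proteins from it (ER-associated degradation), and the sensors, transcription factors and targets of the unfolded protein response. They were taken as a list of gene symbols from known function, chosen with earlier results of these data known. All 33 were among the 24421 rows of the count table, and all 33 passed the filter on low counts, as did 13103 genes in all. By role they were 10 chaperones and folding enzymes, 4 co-chaperones, 7 genes of ER-associated degradation, 7 sensors and transcription factors, and 5 targets of ATF4 and CHOP. The samples were superficial-zone articular cartilage, the surface layer of the joint, of the knee's medial femoral condyle. The tissue came from 2 C57BL/6J mice, M04 and M05, and was taken 8 weeks after an operation. One knee of each mouse had destabilization of the medial meniscus (DMM), an operation that makes the joint unstable and is used as a model of osteoarthritis, and the other had sham surgery. The groups were thus 2 DMM and 2 sham libraries, 1 per knee, with no further replicate of either mouse. The age of the mice is not given in the sources used here. The sample labels call all 4 samples wild type, but the series' design text calls both samples of M05 KO without naming a gene, so M05 against M04 is given as a difference between 2 animals. The free text of the sham samples describes the knee as DMM-operated. Their titles and treatment fields say sham and were followed.

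Secreted and membrane proteins fold in the ER with the help of chaperones such as BiP (Hspa5) and of the protein disulfide isomerases. When unfolded proteins accumulate, the sensors IRE1 (Ern1), PERK (Eif2ak3) and ATF6 act on the transcription factors XBP1, ATF4 and ATF6 itself, which raise chaperones, degradation factors and genes of amino acid supply, and under lasting stress CHOP (Ddit3). Chondrocytes secrete large amounts of collagen and proteoglycan and depend on this machinery, as do plasma cells and other secretory cells.

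The letters through which these transcription factors are known to act can be read in the promoters. RefSeq promoter windows of the mouse build GRCm38.p6, from 250 bases before to 50 bases after each annotated start of transcription, were found for 29 of the 33 genes (not for Hyou1, Manf, Derl1 and Atf6). Both strands were searched for exact matches to 4 motifs. The ER stress response element (ERSE, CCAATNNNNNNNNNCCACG), bound by ATF6 with NF-Y, was in windows of 9 of the 29 genes (31%), against 37 of 27025 genes in all (0.137%). ERSE-II (ATTGGNCCACG) was in 2 of 29 (6.9%), against 12 of 27025 (0.0444%). The core of the amino acid response element bound by ATF4 (CARE core, TGATGNAA) was in 4 of 29 (13.8%), against 1219 of 27025 (4.51%). The core of the unfolded protein response element bound by XBP1 and ATF6 (UPRE core, TGACGTGG) was in 0 of 29, against 193 of 27025 (0.714%). The 29 genes are part of the 27025. The motifs were chosen as those known to act in this pathway, so a higher share is no result of these data. No match was counted as 2 motifs, and a match is a description of letters, not of a site in use. Windows of the 29 genes had a median GC content of 62.3%, against 52.7% over all windows.

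The 250 bases before the start are printed, 5′ to 3′ on the gene's strand, for 6 genes on which the results below turn or which show a motif of each kind. Capitals mark the fixed letters of a motif. Hspa5 holds 1 ERSE, Hsp90b1 holds 2 (the second on the opposite strand), and Canx holds 1. Herpud1 holds an ERSE-II and, on the opposite strand, a CARE core, and Asns holds a CARE core. Pdia4, the gene with the smallest p between the mice, has none of the 4 in these letters.
Hspa5 (chr2:34771840-34772089, plus strand): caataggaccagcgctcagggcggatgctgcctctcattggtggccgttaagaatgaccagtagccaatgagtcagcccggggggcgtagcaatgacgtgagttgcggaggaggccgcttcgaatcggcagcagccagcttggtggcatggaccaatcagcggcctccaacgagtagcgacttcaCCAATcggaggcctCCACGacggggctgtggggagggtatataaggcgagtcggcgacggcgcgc
Hsp90b1 (chr10:86705445-86705694, minus strand): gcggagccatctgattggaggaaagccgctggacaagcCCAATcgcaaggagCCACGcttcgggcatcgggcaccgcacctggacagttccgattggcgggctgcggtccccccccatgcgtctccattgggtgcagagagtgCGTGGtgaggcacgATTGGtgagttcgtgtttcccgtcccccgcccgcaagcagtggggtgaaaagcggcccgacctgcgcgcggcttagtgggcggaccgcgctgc
Canx (chr11:50325674-50325923, minus strand): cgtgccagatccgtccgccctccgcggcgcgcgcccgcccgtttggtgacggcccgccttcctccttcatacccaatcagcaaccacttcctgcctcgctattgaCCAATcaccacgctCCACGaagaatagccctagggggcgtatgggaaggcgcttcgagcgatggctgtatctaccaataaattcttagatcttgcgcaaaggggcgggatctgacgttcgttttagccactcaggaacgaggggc
Pdia4 (chr6:47813513-47813762, minus strand): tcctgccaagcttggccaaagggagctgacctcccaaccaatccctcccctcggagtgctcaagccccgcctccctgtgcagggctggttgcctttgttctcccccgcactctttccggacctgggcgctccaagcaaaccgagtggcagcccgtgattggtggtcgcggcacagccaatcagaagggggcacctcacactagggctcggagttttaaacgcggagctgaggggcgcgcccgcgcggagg
Herpud1 (chr8:94386179-94386428, plus strand): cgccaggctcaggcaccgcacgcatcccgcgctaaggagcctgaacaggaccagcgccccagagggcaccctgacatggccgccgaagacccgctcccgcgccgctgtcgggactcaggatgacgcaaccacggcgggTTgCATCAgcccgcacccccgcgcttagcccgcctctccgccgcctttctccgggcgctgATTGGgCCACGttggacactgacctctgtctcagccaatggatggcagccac
Asns (chr6:7693210-7693459, minus strand): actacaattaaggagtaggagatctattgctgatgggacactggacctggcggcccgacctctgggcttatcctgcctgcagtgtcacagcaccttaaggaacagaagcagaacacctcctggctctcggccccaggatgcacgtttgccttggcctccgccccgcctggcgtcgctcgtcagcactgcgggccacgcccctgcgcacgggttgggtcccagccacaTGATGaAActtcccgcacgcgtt

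Measured to the start of transcription, the ERSE of Hspa5 lay 65 to 47 bases before it and that of Canx 145 to 127 bases before it. Those of Hsp90b1 lay 212 to 194 and 107 to 89 bases before it. The other genes with an ERSE were Calr, Pdia6, Creld2, Dnajc3, Syvn1 and Derl3. Among genes with a window, a match to any motif was found in 6 of 8 chaperones and folding enzymes and 2 of 4 co-chaperones. It was found in 3 of 6 ER-associated degradation genes and 3 of 5 ATF4 and CHOP targets. None of the 4 motifs was matched in the 6 sensors and transcription factors with a window.

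**Figure D1:**
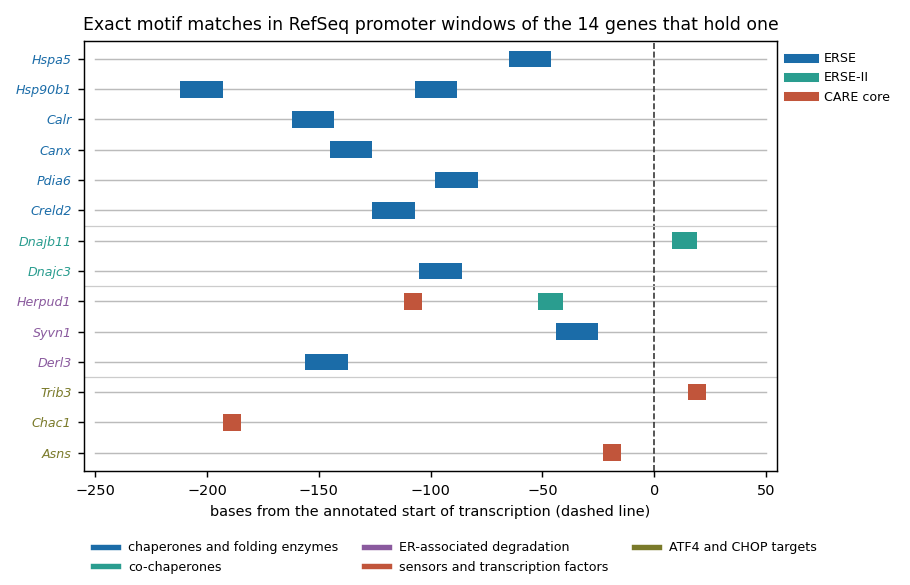
Position of each exact motif match in the promoter windows of the 14 genes that hold one, in bases from the annotated start of transcription (dashed line at 0), with boxes coloured by motif and gene names by role. The ERSE matches all lie before the start, those of Hsp90b1 at 2 places, whereas the ERSE-II of Dnajb11 and the CARE core of Trib3 lie after it.

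Total counts ranged from 12712425 to 19336628 per library, and the 33 genes took 0.378% (sham M04), 0.405% (DMM M04), 0.289% (sham M05) and 0.329% (DMM M05) of the counts. Counts per gene and library ran from 9 (Derl3) to 10866 (Calr), and 4 genes (Derl3, Ern1, Trib3 and Chac1) stayed under 100 counts in every library. Most of the RNA that marker lists could assign came from blood and marrow. Erythroid markers (9 of 12 found) took 26.2% to 35.8% of counts and neutrophil markers (10 of 11 found) 4.2% to 5.94%. Chondrocyte markers (14 of 15 found, none at 0 in any library) took 0.599%, 0.763%, 0.136% and 0.481% in the same order. The sham library of M05 thus held the least chondrocyte RNA. In such bulk libraries, fewer cells of a type and less RNA per cell cannot be told apart. Exons of 12 of the 33 genes overlap those of another gene in a GRCm38 annotation, and 7 had estimated counts that were not whole in at least 1 library, Atf5 in all 4. Whether counting used strand is not given in the sources used here, so reads of such neighbours may be split or shared.

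Per length (FPKM), the most abundant of the 33 were the lectin chaperone Calr, at 346 to 457 over the 4 libraries, and the HSP70 chaperone Hspa5, at 181 to 204. Next came the disulfide isomerase Pdia3 (149 to 158 FPKM), the HSP90 chaperone Hsp90b1 (117 to 137 FPKM) and Ppp1r15a (GADD34, which directs the phosphatase of eIF2alpha, 88.7 to 105 FPKM). The ranges of these 5 did not overlap, and neither did that of the isomerase Pdia6 (72.6 to 80.4 FPKM) with that of Ppp1r15a. Pdia6 overlapped with Xbp1 (66.4 to 77.0 FPKM), and Atf4 (56.6 to 66.3 FPKM) lay just below Xbp1. The sensors were far lower, with Atf6 at 3.10 to 3.92 FPKM, Eif2ak3 at 2.79 to 3.83 FPKM and Ern1 at 0.886 to 1.41 FPKM. Derl3, a derlin typical of secretory cells, overlapped with Ern1 at 0.658 to 1.65 FPKM. Trib3, a pseudokinase induced by ATF4 and CHOP, had the lowest mean of the 33. It ran from 0.526 to 0.868 FPKM and overlapped with Derl3, which was the lower in the DMM knee of M05. Chac1, an ATF4 target that degrades glutathione, was at 1.37 to 3.0 FPKM. Ddit3 (CHOP) stood at 14.8 to 15.8 FPKM.

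**Figure D2:**
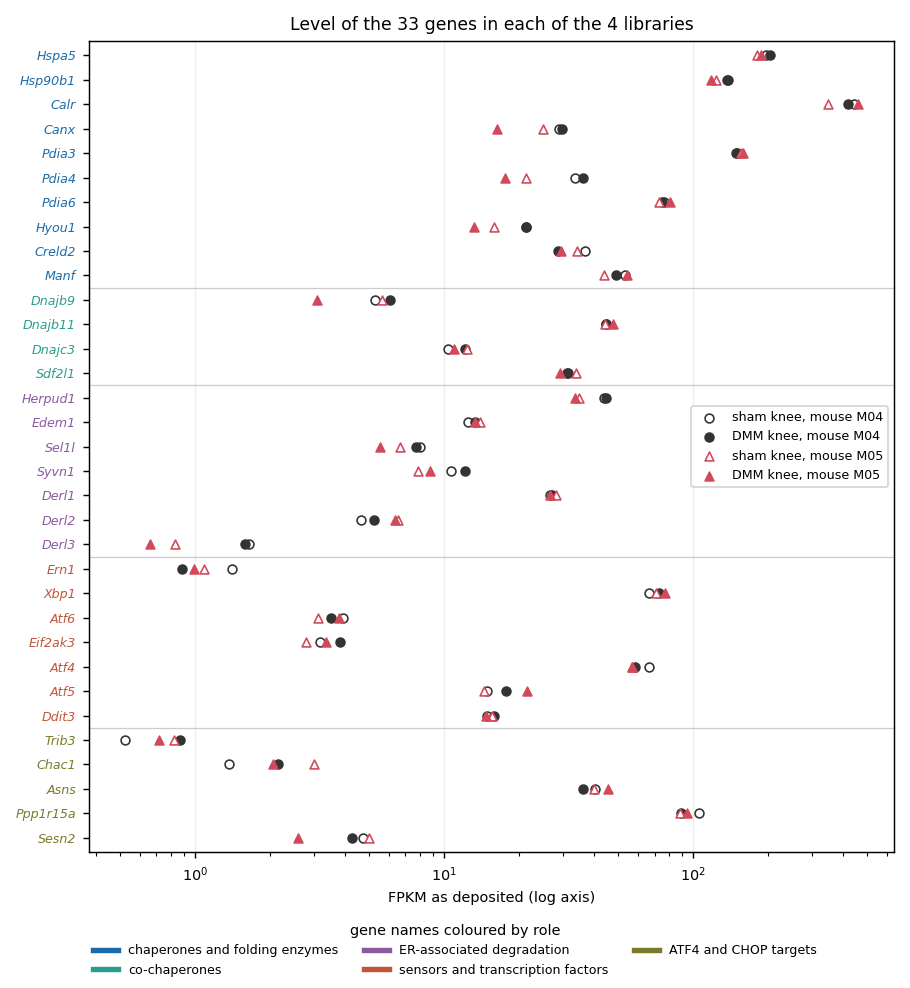
FPKM of the 33 genes (log axis) in the 4 libraries, with circles for M04 and triangles for M05, open for the sham and filled for the DMM knee, and gene names coloured by role. Calr reaches 457 FPKM and Trib3 goes down to 0.526, and Pdia4, Hyou1 and Canx show both triangles to the left of both circles.

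From library to library most of the genes varied little. The ratio of the highest to the lowest TMM-normalised CPM (counts relative to library size, after edgeR's scaling) had a median of 1.27 over the 33 genes and of 1.47 over all genes tested. Pdia3 varied least, with a ratio of 1.06, and Derl3 (2.51), Chac1 (2.28) and Pdia4 (2.09) most. This ratio also depends on count depth, so both medians reflect how abundant the genes are. The genes' values summed to 3609, 3596, 3280.2 and 3430 CPM, in the order sham M04, DMM M04, sham M05, DMM M05. Values below are normalised CPM in this order, unless said otherwise.

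Between DMM and sham knees, 0 of the 33 genes passed the test in either direction (edgeR's quasi-likelihood test with the mouse as a term, Benjamini-Hochberg adjusted over all genes, threshold 0.05), where 0.649% of all genes did (83 genes or 0.633% higher, 2 genes lower). At an unadjusted p under 0.05 there was 1 of 33, against 5.2% of all genes, and DESeq2 called 0 and had 0 at an unadjusted p under 0.05, and limma on FPKM called 0 and had 1. The log2 fold changes had a median of 0.01, against -0.01 over all genes tested, and ran from -0.42 (Sesn2) to 0.44 (Atf5). For 30 of the 33 the 95% interval of the fold change lay within 1 log2 unit of 0 (69.6% of all genes), and for 21 within 0.5 (31.1% of all genes). The intervals of Derl3, Ern1 and Trib3 were wider. Interval width depends on count depth, so these shares also reflect how abundant the genes are. For 29 of the 33 genes the spread came wholly from the trend across genes. Those intervals thus do not measure how far the mice differ in response. That of Canx was -0.59 to 0.02, though its log2 ratio of DMM to sham was 0.05 in M04 and -0.62 in M05. A p that misses the threshold does not show that a gene was the same in both kinds of knee.

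Among the chaperones and folding enzymes, Hspa5 was at 456, 478, 423 and 432 CPM. Its DMM values overlapped the sham values, and its fold change was 0.05 (log2, SE 0.16, 95% interval -0.26 to 0.36). Hsp90b1 was at 347, 353, 318 and 298 CPM, with a fold change of -0.04 (SE 0.15). In both genes the libraries parted by mouse rather than by surgery, with M04 above M05. Calr was at 762, 727, 603 and 788 CPM, where the sham knee of M05 was the lowest and the DMM knee of the same mouse the highest. Pdia3 was even over all libraries, at 360.2, 367, 379.8 and 382 CPM (log2 fold change 0.02, SE 0.15). Pdia6 stood at 140 to 153 CPM and Manf, a secreted ER protein that protects cells under stress, at 88.3 to 107 CPM, and in both the groups overlapped. Creld2, an ER-resident factor induced by stress and by misfolded matrix proteins in cartilage disease, was at 42.4, 33.3, 40.0 and 34.2 CPM. Both DMM values of Creld2 lay under both sham values, but its fold change of -0.29 (SE 0.17) did not pass the test. The group's median log2 fold change was -0.01 over its 10 genes.

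Of the co-chaperones, which tune BiP, Dnajb11 stood at 78.7, 79.4, 79.9 and 85.1 CPM. Dnajc3 (p58IPK), at 51.3, 60.6, 61.3 and 54.3 CPM, was higher in the DMM knee of M04 than in its sham knee and lower in that of M05. Dnajb9 (ERdj4, a target of XBP1) was at 8.67, 10.3, 9.38 and 5.34 CPM, where the DMM knee of M05 stood below the rest. Sdf2l1, a partner of BiP, was at 28.2, 28.2, 30.7 and 26.3 CPM. The fold changes of the 4 genes ran from -0.26 to 0.05.

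The ER-associated degradation genes had fold changes from -0.17 to 0.16, with a median of -0.02, and in all 7 the DMM and sham values overlapped. Edem1, which leads misfolded glycoproteins to degradation, stood at 70.1, 75.4, 78.6 and 74.6 CPM, and Derl1, a component of the exit channel, at 78.5, 80.2, 83.1 and 78.2 CPM. These 2 were the steadiest of the group. Sel1l and Syvn1 (HRD1), the ubiquitin ligase complex of the ER membrane, had fold changes of -0.16 (SE 0.17) and 0.16 (SE 0.18). Derl2 had 0.05 (SE 0.20) and Herpud1, which helps to assemble that complex, -0.02 (SE 0.16). Derl3, at 27 counts or fewer in each library, gave -0.17 with an SE of 0.73.

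The sensors and transcription factors held the gene with the highest fold change. Atf5, an activator related to ATF4 that responds to ER and mitochondrial stress, was at 21.6, 26.7, 21.9 and 32.6 CPM. Both DMM libraries lay above both sham libraries, with a fold change of 0.44 (log2, SE 0.19, unadjusted p = 0.0199, adjusted p = 0.679), and it did not pass. Exons of Atf5 overlap those of Il4i1 and Nup62 on the other strand, and its counts were not whole in any of the 4 libraries, so its value is uncertain. Xbp1 was at 134, 150, 145 and 156 CPM and Eif2ak3 at 13.5, 17.0, 12.6 and 14.5 CPM, again with the DMM above the sham libraries, and neither passed (0.13, SE 0.15, and 0.27, SE 0.23). The table holds 1 row for Xbp1, so its spliced form, which encodes the active factor, was not analysed here. Atf4, at 85.0, 75.5, 76.9 and 70.7 CPM, and Ern1, at 5.63, 3.68, 4.52 and 3.94 CPM, had their DMM below their sham values (-0.15, SE 0.16, and -0.41, SE 0.40). Of the 33 genes, 3 had DMM values all above the sham values (13.2% of all genes did) and 4 had them all below (12.3%), Sdf2l1 by less than the printed digits show. Ddit3 was at 10.8, 11.9, 11.5 and 11.5 CPM (0.07, SE 0.26), and Atf6 at 28.2, 25.7, 22.7 and 27.3 CPM (0.07, SE 0.19).

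In the 5 ATF4 and CHOP targets, the DMM to sham ratio had opposite signs in the 2 mice. Asns (asparagine synthetase) was at 71.6, 62.8, 70.7 and 78.5 CPM and Ppp1r15a at 233, 199, 197 and 207 CPM, so the DMM knee was the lower in M04 and the higher in M05. Sesn2, a stress sensor that restrains mTORC1, was at 12.0, 12.6, 13.7 and 7.14 CPM, with a fold change of -0.42 (SE 0.26), and the DMM knee of M05 stood apart below the rest. Chac1 was at 1.85, 2.94, 4.22 and 2.79 CPM and Trib3 at 0.96, 1.6, 1.52 and 1.31 CPM, from 25 to 72 and from 13 to 26 counts. For these 2, fold changes of 0.01 (SE 0.48) and 0.25 (SE 0.72) come with intervals of -0.94 to 0.95 and -1.17 to 1.67. At this depth the data were compatible with any difference within those bounds.

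**Figure D3:**
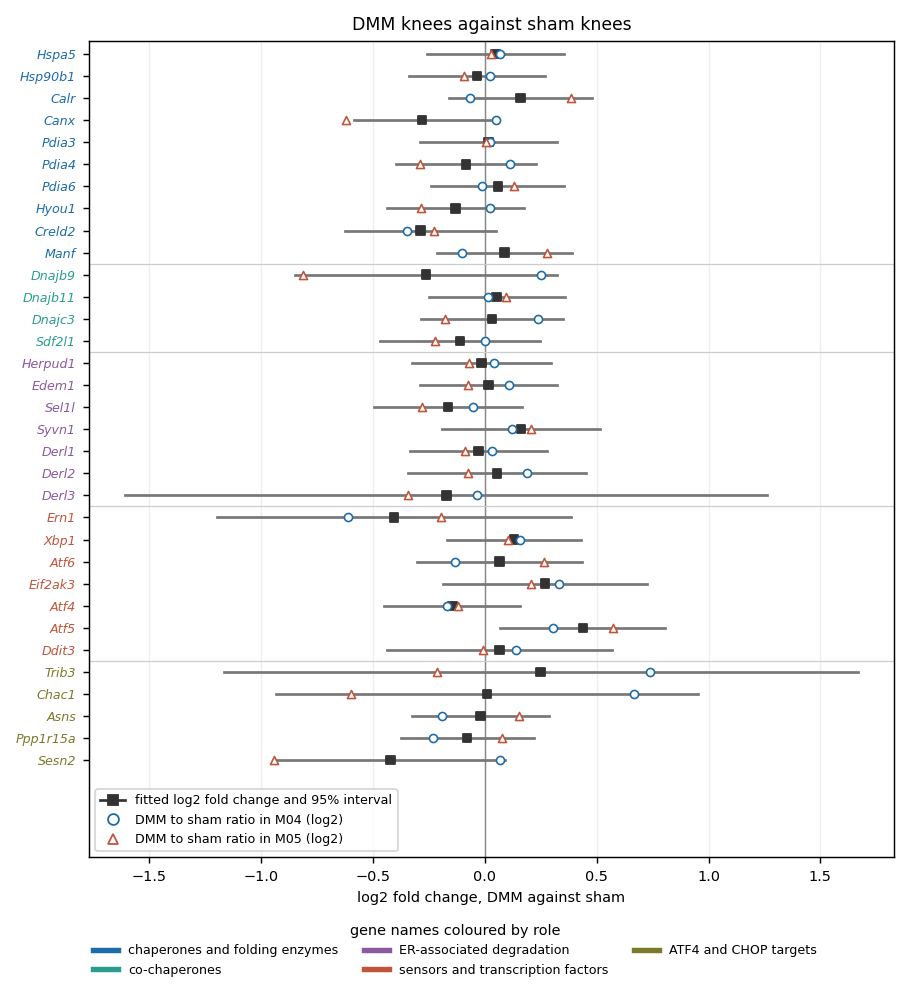
Log2 fold change of DMM against sham for the 33 genes, with squares and bars for the fitted value and its 95% interval, circles for the ratio within M04 and triangles for the ratio within M05. The fitted values stay between -0.42 and 0.44. The circle and triangle lie on the same side of 0 for only 13 of the 33 genes, and Canx, Dnajb9, Sesn2 and Chac1 are among the rest.

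Taken mouse by mouse, the ratio of the DMM to the sham knee had the same sign in both mice for 13 of the 33 genes, where 47.1% of all genes did. In M04, 3 genes had a log2 ratio of 0.5 or more either way (20.1% of all genes), and these were Trib3 (0.74), Chac1 (0.67) and Ern1 (-0.61), all under 100 counts. In M05 there were 5 (25.6% of all genes). These were Sesn2 (-0.94, 95% interval -1.31 to -0.58), Dnajb9 (-0.81, -1.25 to -0.39), Canx (-0.62, -0.75 to -0.50), Chac1 (-0.60, -1.23 to 0.01) and Atf5 (0.57, 0.36 to 0.78), with exact intervals that cover counting error only. The ratios of Sesn2, Dnajb9 and Canx in M04 were 0.07, 0.25 and 0.05. The counting interval excluded 0 for 11 of the 33 genes in M04 (36.8% of all genes) and for 18 in M05 (43.1%). Tested as a contrast of the 2 responses, 0 of the 33 genes differed between the mice (0.0153% of all genes passed), with 0 at an unadjusted p under 0.05 against 2.34% of all genes. That fit takes differences between mice and knees into its spread, so it could miss a difference in response.

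The libraries of M05 and M04 differed in 3 of the 33 genes, all lower in M05 and all chaperones or folding enzymes, where 2.6% of all genes differed in the same test (1.64% lower and 0.962% higher). Pdia4 (ERp72, a disulfide isomerase) was at 74.4, 80.4, 47.0 and 38.4 CPM. Both libraries of M05 lay well under both of M04, with a log2 fold change of -0.86 (SE 0.16, 95% interval -1.18 to -0.54, adjusted p = 4.60e-05). Its exons overlap the microRNA gene Mir704 on the same strand and its counts were not whole in 2 libraries, so reads may be shared there too. Hyou1 (GRP170, a nucleotide exchange factor of BiP) was at 89.1, 90.5, 67.6 and 55.4 CPM, with a fold change of -0.55 (SE 0.16, adjusted p = 0.0233). Canx, the membrane-bound lectin chaperone, was at 118, 122, 102 and 66.1 CPM, with -0.54 (SE 0.16, adjusted p = 0.0254). In all 3 the lowest library was the DMM knee of M05, and in Canx the sham knee of M05 was nearer to both knees of M04 than to the DMM knee of M05. With DMM M05 left out, the difference of Canx was -0.23, and that of Hyou1 -0.41 and of Pdia4 -0.72.

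These calls depended on the processing. Pdia4 alone remained with DESeq2's size factors (adjusted p = 0.00203, against 0.0598 for Hyou1 and 0.0866 for Canx) and with library sizes taken without the haemoglobin rows (adjusted p = 0.00624). It also remained, with Canx, without the sham library of M05, and alone without the DMM library of M05. DESeq2 called neither Canx nor Hyou1 and gave Pdia4 no adjusted p, and it called Pdia4 alone (adjusted p = 0.0388) once its independent filtering was turned off. None of the 3 remained without the surgery term, in limma on FPKM, or without either library of M04, but the fold changes in those fits stayed from -0.90 to -0.80 for Pdia4, from -0.55 to -0.52 for Hyou1 and from -0.54 to -0.49 for Canx. The p-values compare 2 animals, each with 2 knees, and do not measure how mice of a kind vary. Chondrocyte, osteoblast, B lineage and plasma cell, macrophage, endothelium and proliferation markers took less of the total counts in both libraries of M05 than in both of M04. Neutrophil markers took more. Unlike the gene values, these shares are not TMM-scaled. The TMM factors were 1.05 (sham) and 1.13 (DMM) in M04 and 0.883 (sham) and 0.959 (DMM) in M05. Relative to M04, the unscaled shares of M05 are thus lower than TMM-scaled ones would be. Divided by its library's factor, the macrophage share of sham M05 lies slightly above that of DMM M04, so macrophage markers no longer part by mouse. The other lists named here still do, endothelium only narrowly. None of these shares was put to a statistical test. Osteoblast markers (11 of 11 found) took 0.468% and 0.585% in M05 and 0.681% and 0.816% in M04, and B lineage and plasma cell markers (14 of 16 found) 0.0566% and 0.0597% against 0.0707% and 0.0826%. Macrophage markers (9 of 9 found) took 0.117% and 0.119% against 0.140% and 0.149%, and endothelium markers (7 of 7 found) 0.0237% and 0.0307% against 0.0380% and 0.0365%. Proliferation markers (10 of 10 found) took 0.156% and 0.177% against 0.234% and 0.219%, and neutrophil markers 5.94% and 5.62% against 4.2% and 4.52%. No marker of these lists was at 0 in any library. Their part in the result was not tested.

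The other abundant chaperones did not pass. The differences of M05 against M04 were -0.13 (SE 0.16) for Hspa5, -0.18 (SE 0.15) for Hsp90b1, -0.11 (SE 0.16) for Calr, 0.07 (SE 0.15) for Pdia3 and 0.01 (SE 0.15) for Pdia6. At an unadjusted p under 0.05 there were 6 of the 33 genes (14.3% of all genes), the 3 above and 3 of ER-associated degradation. Syvn1 was at 34.8, 37.8, 23.6 and 27.3 CPM (log2 fold change -0.52, adjusted p = 0.0978), Herpud1 at 72.6, 74.6, 58.2 and 55.4 CPM (-0.37, adjusted p = 0.21) and Sel1l at 48.2, 46.5, 40.2 and 33.1 CPM (-0.38, adjusted p = 0.254). Exons of Syvn1 overlap those of Mrpl49 on the other strand, and its counts were not whole in 3 libraries, so its value is uncertain. In each of these 3 genes, both values of M05 lay under both of M04. That held for 9 of the 33 genes (22.8% of all genes), namely Hspa5, Hsp90b1, Canx, Pdia4, Hyou1, Herpud1, Sel1l, Syvn1 and Derl3. The reverse held for 3 (22.5% of all genes), namely Pdia3, Dnajb11 and Derl2. Derl3 had the lowest fold change, -1.12, but with an SE of 0.74 from 9 to 27 counts. No sensor, transcription factor, co-chaperone or ATF4 and CHOP target passed, and the median over the 33 genes was -0.09, against -0.01 over all genes.

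**Figure D4:**
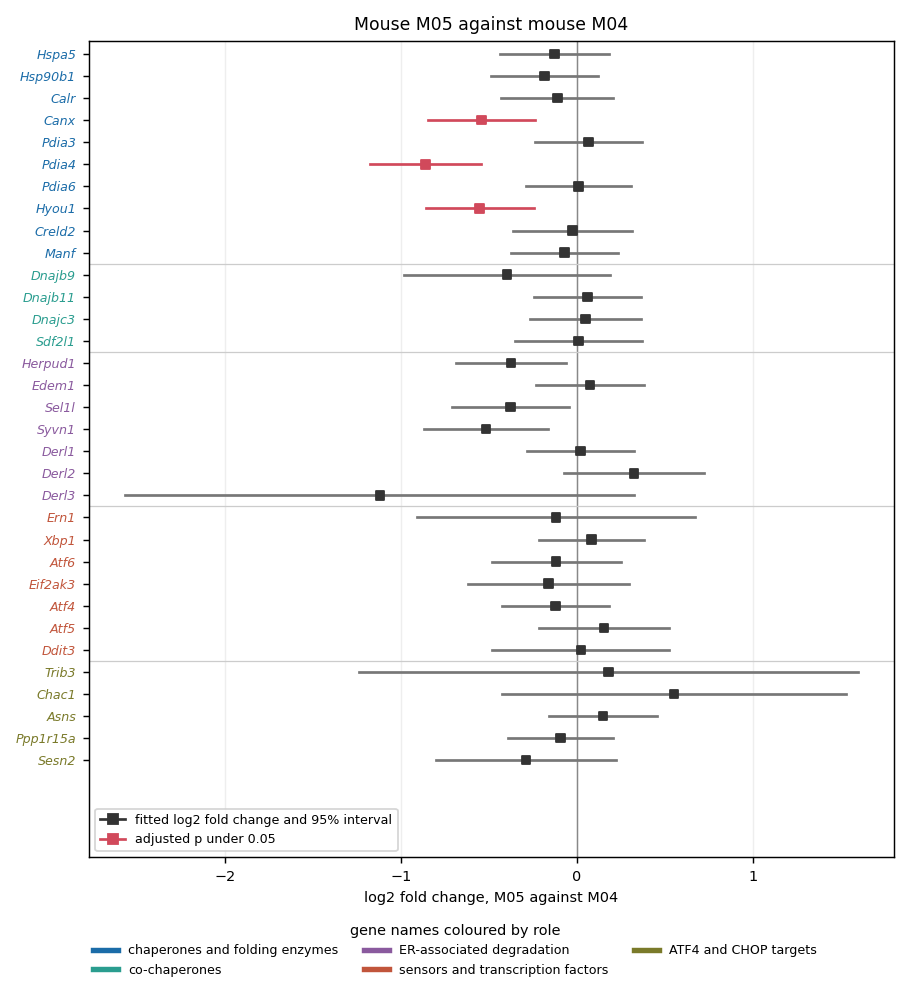
Log2 fold change of M05 against M04 for the 33 genes with the 95% interval of the fit, in red where the adjusted p is under 0.05. Pdia4 (-0.86), Hyou1 (-0.55) and Canx (-0.54) pass, and the widest intervals belong to Derl3, Trib3 and Chac1.

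A wider set of 96 genes of the same pathways, in 5 lists, was read from the same fit, and 95 of them were tested (Fgf21 was at 0 in every library). Between DMM and sham, 0 of these genes passed in any list, and in list order 2, 1, 0, 0 and 2 had an unadjusted p under 0.05. The median fold change was 0.09 over 21 other folding and glycan enzymes, from Erp44 (-0.23), which retains proteins in the early secretory pathway, to Fkbp10 (0.42), a collagen chaperone. The median was -0.05 over 15 genes of the translocon and signal peptidase, 0.00 over 18 other ER-associated degradation genes, 0.04 over 18 other sensors and regulators and 0.06 over 23 other ATF4 targets. Counting genes that averaged 5 CPM or more, those lists ran from Sec61g (-0.31) to Sec11a (0.11), from Herpud2 (-0.22) to Os9 (0.17), from Ppp1r15b (-0.22) to Creb3l1 (0.33), and from Slc7a1 (-0.18) to Nupr1 (0.51, adjusted p = 0.378). With genes below that level, the sensors and regulators reached from Eif2ak4 (-0.25, SE 0.38) to Mbtps2 (0.62, SE 0.57). The ATF4 targets then reached up to Stc2 (0.88, SE 0.44, adjusted p = 0.943).

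Between the mice, 3 of the 15 translocon and signal peptidase genes were higher in M05 and none lower, where 0.962% of all genes were higher. Sec61g, a subunit of the channel through which new proteins enter the ER, was at 177, 169, 342 and 234 CPM (log2 fold change 0.71, SE 0.15, adjusted p = 7.10e-04). Sec61b, another subunit, was at 69.3, 79.2, 131 and 89.6 CPM (0.55, SE 0.16, adjusted p = 0.0243), and Sec11c, a signal peptidase subunit, at 61.6, 57.6, 94.5 and 88.5 CPM (0.62, SE 0.16, adjusted p = 0.00746). The sham library of M05 was the highest in all 3, and without it the differences were 0.44, 0.27 and 0.57 and none passed. Sec61b also did not pass with DESeq2's size factors (adjusted p = 0.0902), without the haemoglobin rows (0.114) or in DESeq2 (0.126, and 0.526 without independent filtering), and Sec11c did not in DESeq2 without independent filtering (0.213). None of the 3 passed without the surgery term, in limma on FPKM or without either library of M04, where the fold changes stayed from 0.70 to 0.78 for Sec61g, 0.48 to 0.66 for Sec61b and 0.57 to 0.68 for Sec11c. Of the other lists 0 genes passed. Among genes that averaged 5 CPM or more, their extremes were Fkbp7 (0.72) and Fkbp14 (-0.33), Selk (0.46) and Edem3 (-0.23), Creb3 (0.30) and Cebpb (-0.54), and Slc7a11 (0.40) and Nupr1 (-0.37). Below that level, the ATF4 target Stc2 had -1.35 (SE 0.45, adjusted p = 0.0764). Of the other sensors and regulators below it, Wfs1 had -0.97 (SE 0.40, adjusted p = 0.197) and Mbtps2 0.43 (SE 0.57). The chondrocyte share of counts was lowest in that same sham library of M05 (0.136%). The part of cell makeup in this was not tested.

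**Figure D5:**
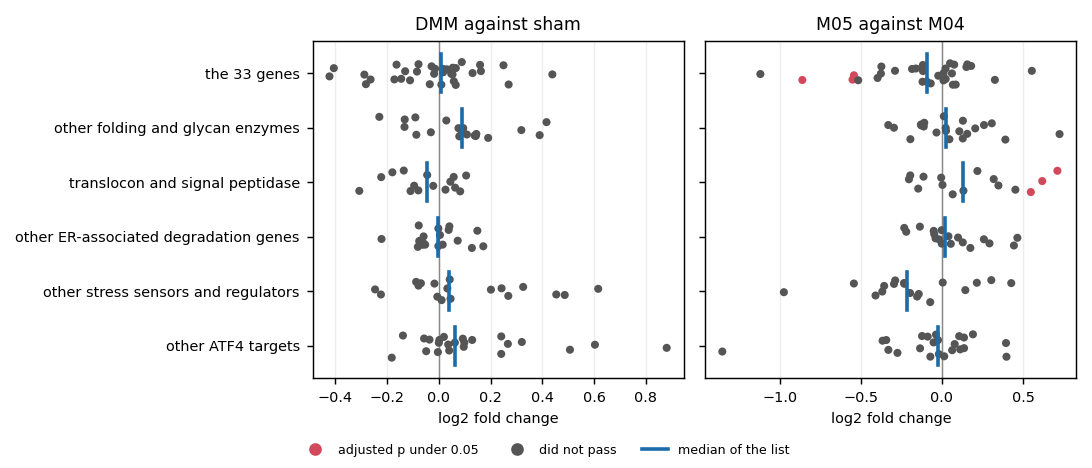
Log2 fold changes of the 33 genes and of 5 further lists, for DMM against sham (left) and M05 against M04 (right), with 1 point per gene, blue bars at the list medians and red points at an adjusted p under 0.05. No point is red on the left, and on the right 3 of the 33 genes are red below 0 and 3 translocon and signal peptidase genes above it.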

How the data were processed

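RNA of 4 libraries was sequenced as poly(A)-selected, single-end reads on a HiSeq instrument, per the labels' protocols. The authors deposited estimated counts per gene, in which 9.21% to 10.9% of the values per library were not whole, and a separate table of deposited FPKM values, scaled by length and depth. Per the submitters' processing notes reads were placed on GRCm39 (mm39). No aligner, counter or strand setting is given in the sources used here. The second column of each library repeated the first in 24421 of 24421 rows and was not used.

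Rounded counts were tested in R 4.3.3 by edgeR 4.0.16 (filterByExpr, TMM, robust quasi-likelihood fit with mouse and surgery as terms, Benjamini-Hochberg over 13103 genes, threshold 0.05). The script was tested on simulated data. The labels pair both knees of a mouse, and the deviations of same-mouse libraries correlated at 0.13 across genes, so the mouse is a block. The fit has 1 residual degree of freedom, and 83.0% of genes (29 of the 33) took their spread wholly from the trend across genes. Their p-values, SEs and 95% intervals thus do not measure how far the mice differ in response. A contrast of DMM M04 and sham M05 against the other libraries, with 2 residual degrees of freedom, tested the difference in response. Ratios within a mouse are of TMM-normalised CPM with an exact 95% interval of the counts, which are not independent molecules. Each knee gave 1 library.

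The 33 genes and all lists were chosen with earlier results of these data known. All 33 are accounted for. Of the 96 other pathway genes, those past the threshold are named (up to 3 per list), or else the highest and lowest with a mean of at least 5 CPM. Promoters came from RefSeq (GRCm38.p6), and bases after the start are not printed. Alternatives were DESeq2 1.42.0, limma 3.58.1 on log2(FPKM + 1) and log2(FPKM + 0.1), other scalings and filters, fits without a term, and each library left out.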

Additional observations from a re-analysis of the deposited data

How the results depend on the processing

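The 33 genes gave 0 calls for DMM against sham under every alternative run, including the fit with no replicate block (0 of 33), and 0 for the difference in response. Calls over all genes moved more. For DMM against sham the 85 became 0 with no replicate block, 35 with DESeq2's size factors, 28 without haemoglobin rows, 13 with DESeq2 (13 without its independent filtering), 1 with limma on either FPKM scale, and 0 to 109 with 1 library left out. For M05 against M04 the 341 became 0 without the surgery term, 186 with DESeq2's size factors, 126 without haemoglobin rows, 72 with DESeq2 (33 without independent filtering), 0 with limma on either FPKM scale, and 0 to 256 with 1 library left out. The 3 of 33 genes called there became 0 without the surgery term, 1 with DESeq2's size factors, 1 without haemoglobin rows, 0 with DESeq2, 1 without its independent filtering, 0 with limma on either FPKM scale, and 0 to 2 with 1 library left out. DESeq2's independent filtering set a minimum mean count of 969, which left 15 of the 33 genes an adjusted p, and Pdia4 had none. With DESeq2's size factors or without haemoglobin rows no gene kept an infinite prior degree of freedom, against 83.0% of genes, and the fold changes hardly moved. The fit without independent filtering and all alternatives for the difference in response were added after seeing the data. With 1 library left out, the second term was dropped and a lone library was assumed to vary like the others.

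Signs of uncalled genes turned by more than 1 SE in these fits alone. The log2 fold changes for DMM against sham ranged from -0.0085 to 0.33 for Calr, -0.73 to 0.15 for Canx, -0.65 to 0.41 for Pdia4, -0.49 to 0.21 for Hyou1, -0.75 to 0.19 for Dnajb9, -0.23 to 0.19 for Herpud1, -0.41 to 0.075 for Sel1l, -0.094 to 0.47 for Syvn1, -0.17 to 0.29 for Derl2, -0.55 to 0.63 for Chac1, -0.18 to 0.15 for Asns, -0.76 to 0.19 for Sec61g and -0.43 to 0.079 for Slc7a1. For M05 against M04 they ranged from -0.30 to 0.083 for Calr, -0.20 to 0.17 for Creld2, -0.14 to 0.43 for Atf5, -0.78 to 0.16 for Sesn2 and -0.086 to 0.86 for Slc7a11. The causes were not tested.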
